A study of Mus musculus with 6 samples.

Results

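CDK inhibitors and the p53 axis were examined in embryonic mouse hearts with and without a Casz1 mutation. The members are 10 genes taken by their symbols from a table of 23290 entries. Of these, 6 are inhibitors of cyclin-dependent kinases (CDKs): Cdkn1a, Cdkn1b and Cdkn1c of the Cip/Kip family and Cdkn2a, Cdkn2c and Cdkn2d of the INK4 family. The other 4 are the p53 gene Trp53, its negative regulator Mdm2 and the p53 target genes Perp and Ccng1. Each gene matched 1 entry through its RefSeq identifiers, and the authors had tested all 10.

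RNA was sequenced from 6 individually harvested hearts at E10.5, when the chambers of the looped heart are forming, on a C57BL/6 background. The 3 control hearts were Nkx2-5+/+,Casz1f/+, which means that they carried 1 floxed Casz1 allele and no Cre recombinase. The 3 mutant hearts were Nkx2-5Cre/+,Casz1f/f, with both Casz1 alleles floxed and Cre placed in 1 of the Nkx2-5 alleles. Casz1 encodes a zinc finger transcription factor, and Nkx2-5 encodes a homeodomain factor of the heart. Cre acts in cells that have expressed Nkx2-5, so heart cells of other origin keep Casz1. A group with Cre and intact Casz1 is not analysed here, so effects of the Cre allele and of the Casz1 deletion cannot be told apart. The study set these genotypes against each other to find genes whose expression depends on Casz1 in the heart.

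CDK inhibitors restrain the cell cycle. Cip/Kip proteins bind cyclin-CDK complexes, above all those of Cdk2, while INK4 proteins bind Cdk4 and Cdk6 and keep them from D-type cyclins. Cdkn1c (p57) is known as a marker of the trabecular myocardium of the embryonic heart, where cells divide less than in the compact wall. The p53 protein activates genes for cell cycle arrest, DNA repair and cell death, and Mdm2, itself a p53 target, marks p53 for degradation. Most control of p53 acts on the protein, which RNA levels do not show.

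Levels are in FPKM (fragments scaled by transcript length and library size), so different genes can be set side by side. The table gives 1 FPKM per genotype and none per heart, so neither the sequencing depth nor the variation from heart to heart is known. All FPKM values, log2 fold changes (mutant over control), p and q come from the authors' deposited table, and their Cuffdiff test rests on 3 hearts per genotype. A gene is called changed at q under 0.05. Each standard error (SE) was worked out from the deposited fold change and test statistic. The cardiomyocyte gene Tnnt2 read 1975 FPKM in the controls and 1974 FPKM in the mutants, as a check of the tissue. Casz1 itself read 6.61 and 4.68 FPKM (log2 -0.50, SE 0.306, q = 1.00 by Cuffdiff), and its FPKM counts the whole gene model, deleted part or not. Nkx2-5 read 143.0 and 82.9 FPKM (log2 -0.79, SE 0.295, q = 0.536 by Cuffdiff).

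No member was called: of 10 tested, 0 rose and 0 fell in the authors' deposited Cuffdiff table, where 0.422% of 15387 tested entries were called. At an unadjusted p under 0.05 there was 1 member, Perp, which was lower in mutant hearts, against 3.17% of all tested entries (1.18% lower and 1.99% higher). Perp read 27.6 FPKM in the controls and 14.5 FPKM in the mutants. The other 9 members had log2 fold changes between -0.28 and 0.29, and for 7 of them the value was below 0. Over the 10 members the median log2 fold change was -0.08, against -0.02 over the 12150 tested entries with at least 1 FPKM in either genotype. Without Perp the member median was -0.06. Of those 12150 entries 55.6% lay below 0.

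**Figure D1:**
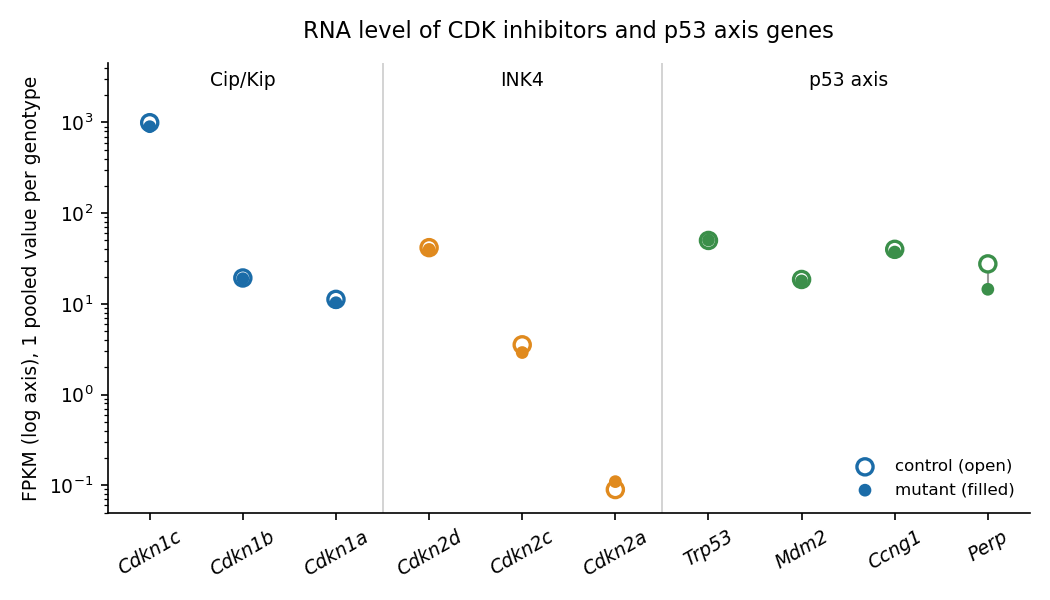
FPKM of the 10 genes on a log axis, with 1 pooled value per genotype (open circles control, filled circles mutant) and no error bars because the table holds no value per heart. Cdkn1c stands at 995 and 899 FPKM, Cdkn2a near 0.1 FPKM, and Perp is the gene whose circles separate, at 27.6 and 14.5 FPKM.

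Levels spanned 4 orders of magnitude on the FPKM scale. In control hearts the order was Cdkn1c, Trp53, Cdkn2d, Ccng1, Perp, Cdkn1b, Mdm2, Cdkn1a, Cdkn2c and Cdkn2a. In mutant hearts Perp moved from rank 5 to rank 7, Cdkn1b and Mdm2 each moved up 1 rank, and the remaining 7 genes kept their ranks. Neighbours in this order, such as Cdkn2d and Ccng1 at 41.7 and 39.9 FPKM in control hearts or Cdkn1b and Mdm2 at 19.3 and 18.6 FPKM, cannot be separated without values per heart. Cdkn1c lay above 99.5% of all tested entries in control hearts, and Cdkn2a above 1.88%.

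Cdkn1c, the imprinted Cip/Kip inhibitor p57, stood at 995 FPKM in the controls and 899 FPKM in the mutants. Both values are high, and the mutant value is 0.904 of the control value (log2 -0.15, SE 0.463, q = 1.00 by Cuffdiff). The 95% interval runs from -1.05 to 0.76, so a drop to 0.482 of the control level lies within it. The gene lies on chromosome 7 from 143458339 to 143461050 in mm10, on the minus strand, and its entry joins 2 RefSeq transcripts of 4 exons. An antisense transcript, Gm44732, overlaps 892 bases of it in the GENCODE annotation, and the sources used here do not say whether reads were counted by strand, so reads of both cannot be told apart.

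Cdkn1c supplied most of the inhibitor RNA in both genotypes. The 6 inhibitors summed to 1071 FPKM in the controls and 971 FPKM in the mutants, of which Cdkn1c made up 92.9% and 92.6%. Its FPKM was 51.5 times that of Cdkn1b in control and 47.4 times in mutant hearts. Against Cdk4, the G1 kinase that INK4 proteins bind, the Cdkn1c level was 2.42 times as high in control and 2.22 times in mutant hearts. Cdk2, whose complexes Cip/Kip proteins bind above all, read 39.4 FPKM in the controls and 34.3 FPKM in the mutants. These are RNA levels and do not give a balance of inhibitor and kinase proteins.

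Cdkn1b (p27), a Cip/Kip inhibitor that accumulates in resting cells, had 19.3 FPKM in the controls and 18.95 FPKM in the mutants. The change was -0.03 on the log2 scale (SE 0.284, 95% interval -0.58 to 0.53, q = 1.00 by Cuffdiff). That interval excludes a doubling and a halving. Cdkn1b lies on chromosome 6 from 134920401 to 134925525 and has 3 exons.

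Cdkn1a (p21), the Cip/Kip inhibitor best known as a p53 target, had 11.2 FPKM in the controls and 10.3 FPKM in the mutants. The change was -0.12 on the log2 scale (SE 0.318, 95% interval -0.75 to 0.50, q = 1.00 by Cuffdiff), and the interval again excludes a doubling and a halving. Cdkn1a lies on chromosome 17 from 29090986 to 29100722, 2.25 Mb from Nkx2-5, the locus that carries Cre in the mutant hearts. Between these loci 38 entries were tested, with 0 calls and 0 entries at an unadjusted p under 0.05 in the authors' deposited Cuffdiff table. Over all tested entries the shares were 0.422% and 3.17%, so 38 entries would hold few. The 34 entries of this interval with at least 1 FPKM had a median log2 fold change of 0.00, with a range from -0.35 to 0.80. A transcript of unsettled type, AC167363.2, overlaps 1046 bases of Cdkn1a on the opposite strand.

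Among the INK4 genes Cdkn2d (p19Ink4d) had the highest level, with 41.7 FPKM in the controls and 39.9 FPKM in the mutants (log2 -0.06, SE 0.297, 95% interval -0.65 to 0.52, q = 1.00 by Cuffdiff). It supplied 92.0% of INK4 FPKM in control and 93.0% in mutant hearts. The gene has 2 exons and lies on chromosome 9 from 21288464 to 21291209. Cdkn2c (p18Ink4c) stood at 3.54 FPKM in the controls and 2.91 FPKM in the mutants. Its log2 fold change of -0.28 came with a wider error (SE 0.472, 95% interval -1.21 to 0.64, q = 1.00 by Cuffdiff), and a halving is not excluded.

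Cdkn2a, which encodes p16Ink4a and, from another promoter and reading frame, the Mdm2 antagonist p19Arf, was close to the lower limit of the table. Its level was 0.0897 FPKM in the controls and 0.110 FPKM in the mutants (log2 0.29, SE 0.898, 95% interval -1.47 to 2.05, q = 1.00 by Cuffdiff). With 1 FPKM added to both values the log2 fold change was 0.03. The entry joins NM_001040654 and NM_009877, each of 3 exons, so the 2 products are not separated. Cdkn2a and Cdkn2c both lie on chromosome 4, as Casz1 does, at distances of 59.5 and 39.1 Mb from it. Cdkn2a spans 89274473 to 89294619 and Cdkn2c spans 109660876 to 109665372. Next to Cdkn2a, the INK4 gene Cdkn2b read 0.418 and 0.669 FPKM, also low (log2 0.68, SE 0.578, q = 1.00 by Cuffdiff). On the other side of Cdkn2a, the enzyme gene Mtap read 30.1 and 30.6 FPKM and the chromatin reader gene Mllt3 read 13.7 and 13.1 FPKM. None of the 4 tested genes beside Cdkn2a was called by Cuffdiff (0 with an unadjusted p under 0.05). Over all tested entries the shares were 0.422% and 3.17%.

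**Figure D2:**
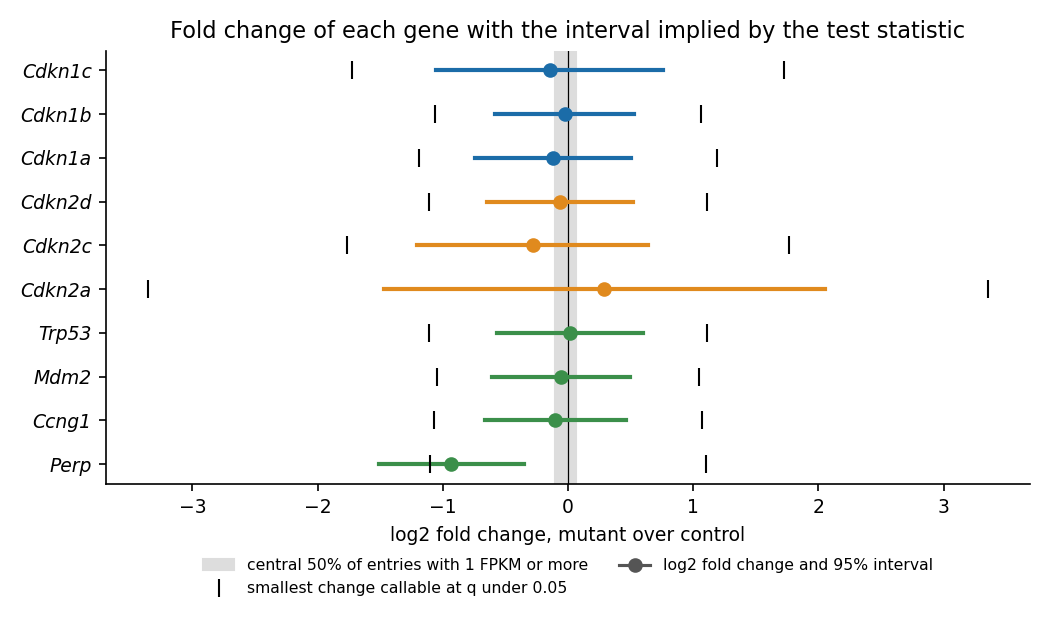
Log2 fold change (mutant over control) of each gene with its 95% interval (coloured bar), the central 50% of 12150 expressed entries (grey band) and the smallest change that would have been called at that gene's SE (black ticks). The interval of Perp lies below 0, from -1.51 to -0.35, short of a call at its tick, and the intervals of the other 9 genes include 0.

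The size of change that the authors' test could have called differed among the members. The smallest test statistic of a called entry was 3.73 in size. At the SE of each member this corresponds to a 2.07-fold change for Mdm2, 2.08-fold for Cdkn1b and 2.28-fold for Cdkn1a. For Cdkn1c, at the top of the expression range, it is 3.31-fold, for Cdkn2c 3.39-fold and for Cdkn2a 10.2-fold. Smaller changes of these genes would not have been called in this table.

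Trp53, the p53 gene, had 50.05 FPKM in the controls and 50.5 FPKM in the mutants. The mutant value is 1.01 times the control value (log2 0.01, SE 0.297, 95% interval -0.57 to 0.60, q = 1.00 by Cuffdiff), and with FPKM scaled to equal sums the log2 value was -0.01. The gene has 11 exons and lies on chromosome 11 from 69580359 to 69591873. Mdm2, the ubiquitin ligase that opposes p53, was at 18.6 and 17.9 FPKM (log2 -0.05, SE 0.281, 95% interval -0.60 to 0.50, q = 1.00 by Cuffdiff). It has 12 exons in the matched transcript and lies on chromosome 10 from 117688905 to 117710716. Trp53 FPKM was 2.69 times that of Mdm2 in control and 2.82 times in mutant hearts. Within 1 Mb of Mdm2 lie the lysozyme genes Lyz1 and Lyz2, near-identical copies that may share reads, which were the 2 called entries among 15 tested there, and the 14 with at least 1 FPKM had a median of -0.02.

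Ccng1 (cyclin G1), a p53 target that takes part in feedback on Mdm2, had 39.9 FPKM in the controls and 37.3 FPKM in the mutants. The change was -0.10 on the log2 scale (SE 0.287, 95% interval -0.66 to 0.46, q = 1.00 by Cuffdiff). It lies on chromosome 11 from 40748552 to 40755286 and has 6 exons. Trp53 and the p53 targets Mdm2, Ccng1 and Cdkn1a thus had mutant values between 0.918 and 1.01 of the control values, and a doubling or halving lies outside all 4 intervals. Perp, the remaining p53 target among the members, had a mutant value of 0.524 of the control value, and its interval includes a halving.

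Windows upstream of the members were searched for the p53 consensus decamer, the 10-base motif of which a full p53 element holds 2 copies, because Cdkn1a, Mdm2, Ccng1 and Perp are textbook p53 targets. RefSeq promoter windows (GRCm38.p6) matched 8 of the 10 members, with 11 windows in all, and the 250 bases before each start were read. Perp and Cdkn1c were not matched. A decamer was found in 5 of the 11 windows, those of Cdkn1a, Trp53, Mdm2, Ccng1 and Cdkn2d. Among all 32851 RefSeq promoter windows, read over the same length, 7.13% held one. The consensus reads the same on both strands. Windows around the matches are printed 5′ to 3′ on the strand of the gene, with decamers in capitals.
Cdkn1a: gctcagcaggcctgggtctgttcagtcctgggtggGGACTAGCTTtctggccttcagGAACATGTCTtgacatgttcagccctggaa
Trp53: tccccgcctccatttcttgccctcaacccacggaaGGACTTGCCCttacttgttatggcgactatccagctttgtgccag
Mdm2: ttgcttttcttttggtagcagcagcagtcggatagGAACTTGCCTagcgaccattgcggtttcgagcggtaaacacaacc
Ccng1: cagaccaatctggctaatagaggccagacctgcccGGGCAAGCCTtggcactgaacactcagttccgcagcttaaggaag
Cdkn2d: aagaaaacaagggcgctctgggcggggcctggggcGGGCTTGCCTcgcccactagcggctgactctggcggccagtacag

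These stretches lie at chr17:29090871-29090957 on the plus strand for Cdkn1a, chr11:69580249-69580328 on the plus strand for Trp53, chr10:117710900-117710979 on the minus strand for Mdm2, chr11:40755427-40755506 on the minus strand for Ccng1 and chr9:21291267-21291346 on the minus strand for Cdkn2d. Cdkn1a held 2 decamers in the window of its upstream start, beginning 73 and 51 bases before that start, and 0 in the window of its downstream start. Those of Mdm2 and Ccng1 begin 186 and 185 bases before the start. The 5 genes with a decamer had log2 fold changes from -0.12 to 0.01 and none was called. A match is a run of letters and does not show that p53 binds there. The GC box GGGCGG was found on either strand in 6 of the 11 windows, against 32.7% of all windows, and CCAAT on either strand in 5 of 11, against 33.8%. TATAAA on either strand occurred in 1 of 11, against 12.4%. Of the 11 windows 10 had a GC content above the median window (52.4%), and these shares were not matched for GC.

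**Figure D3:**
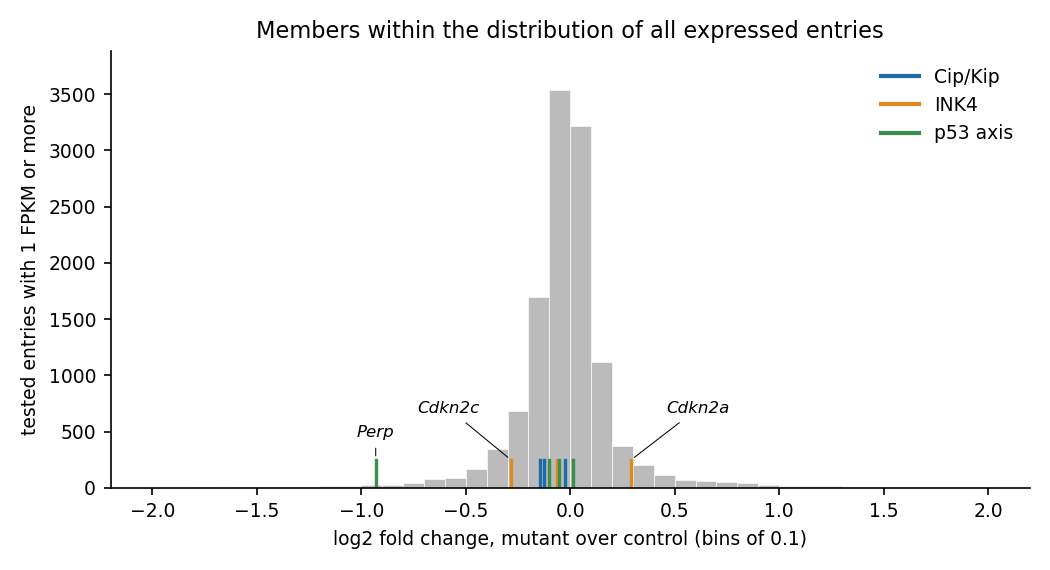
Histogram of log2 fold changes (mutant over control, bins of 0.1) for 12150 tested entries with at least 1 FPKM in either genotype, with coloured ticks at the 10 members; 48 entries lie outside the drawn range. The ticks of 9 members lie within the central 95% of entries, from -0.53 to 0.58, and Perp lies below it; Cdkn2a is drawn although it is under 1 FPKM.

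Perp had the largest log2 fold change of the 10 members in size. It encodes a tetraspan membrane protein of desmosomes that was found as a p53 target in dying cells and is a target of the p53 relative p63 in stratified epithelia. From 27.6 FPKM in control to 14.5 FPKM in mutant hearts, its level was 1.91 times as high in control hearts (log2 -0.93, SE 0.295, 95% interval -1.51 to -0.35). Cuffdiff gave an unadjusted p of 0.00160 and q = 0.196, so it was not called, also at q under 0.10. Of 15387 tested entries 123 had a smaller p, among them 41 that were lower in mutant hearts. Of the 12150 expressed entries 99 had a lower log2 fold change. Perp lies on chromosome 10 from 18845071 to 18857072, on the plus strand, with 3 exons. Of 11 other tested entries within 1 Mb 0 were called, against 0.422% of all tested entries. The 10 nearby entries with at least 1 FPKM had a median of -0.12.

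The list for the desmosome, the junction to which Perp belongs, gave no calls. It also counts Tmem47 and Pmp22 (log2 0.38 and 0.26), which are not desmosome genes in the strict sense. Of its 9 tested genes 0 rose, 0 fell and 1 had an unadjusted p under 0.05 in the authors' deposited Cuffdiff table. Over all tested entries 0.422% were called and 3.17% had such a p. In the list 4 genes lay below 0 and 5 above, and the median log2 fold change was 0.06 with Tmem47 and Pmp22 included. Both of these are among the 5 above 0. The 4 below 0 were Pkp2 (-0.33), Dsc2 (-0.20), Dsg2 (-0.14) and Pkp4 (-0.02). Desmoplakin Dsp, which ties desmosomes to intermediate filaments, read 44.9 FPKM in the controls and 46.9 FPKM in the mutants (log2 0.06, SE 0.333, q = 1.00 by Cuffdiff). Perp FPKM was 0.615 of Dsp FPKM in control and 0.309 in mutant hearts. Plakophilin Pkp2, a desmosomal plaque protein of heart muscle, read 49.8 and 39.7 FPKM (log2 -0.33, SE 0.284, q = 1.00 by Cuffdiff), and the myelin and junction protein gene Pmp22 read 41.2 and 49.2 FPKM. Pkp3, a plakophilin of epithelia, was the 1 gene of the list with an unadjusted p under 0.05 and went the other way, from 0.127 to 0.378 FPKM (log2 1.58, SE 0.681, q = 0.981 by Cuffdiff). No test compared Perp with these genes.

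Markers of other cell types and of the chambers were read from the same pooled values. All 9 foregut and pharyngeal epithelium markers were higher in mutant hearts and 6 of them rose, against 0.305% of all tested entries that rose. Their summed FPKM was 4.11 in the controls and 20.98 in the mutants, with Epcam at 0.971 and 4.42 FPKM. Of the 5 tested markers of surface and stratified epithelium 0 were called, and 3, all higher, had an unadjusted p under 0.05. The 6 chamber myocardium markers were all lower and 1 fell, Pln, against 0.117% of all tested entries that fell. They summed to 2115 FPKM in the controls and 1107 FPKM in the mutants. Most of both sums came from Nppa, which was not called (log2 -0.98, q = 0.746 by Cuffdiff), so the sums mainly follow 1 gene. Across the 6 markers the median log2 fold change was -0.72, with a range from -1.20 for Pln to -0.02 for Bmp10. The Bmp10 value is close to the median of all expressed entries. Of the 5 platelet markers 0 were called and 2, both lower, had an unadjusted p under 0.05, and the list summed to 91.6 and 48.6 FPKM. Of the 6 tested macrophage markers 1 fell, Lyz2, from 16.9 to 1.91 FPKM, and it may share reads with Lyz1. The other 6 macrophage markers summed to 3.77 and 3.38 FPKM, with 0 calls by Cuffdiff among the 5 tested and 0 at an unadjusted p under 0.05. The remaining lists held 0 calls by Cuffdiff. Their median log2 fold changes were -0.15 for 8 general cardiomyocyte markers, -0.17 for 8 markers of endocardium and endothelium (8 of 8 below 0), -0.09 for 6 epicardial markers, -0.01 for 6 of cushion mesenchyme, 0.11 for 5 tested erythroid markers and 0.14 for 4 tested markers of neural crest and neurons. In these lists 1 gene had an unadjusted p under 0.05, the neural crest factor Tfap2b, which read 0.0235 and 0.134 FPKM. The part of these cell types in the Perp value, and in the Cdkn1c value, was not tested, and in RNA from whole hearts fewer cells of a type and less RNA per cell cannot be told apart.

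**Figure D4:**
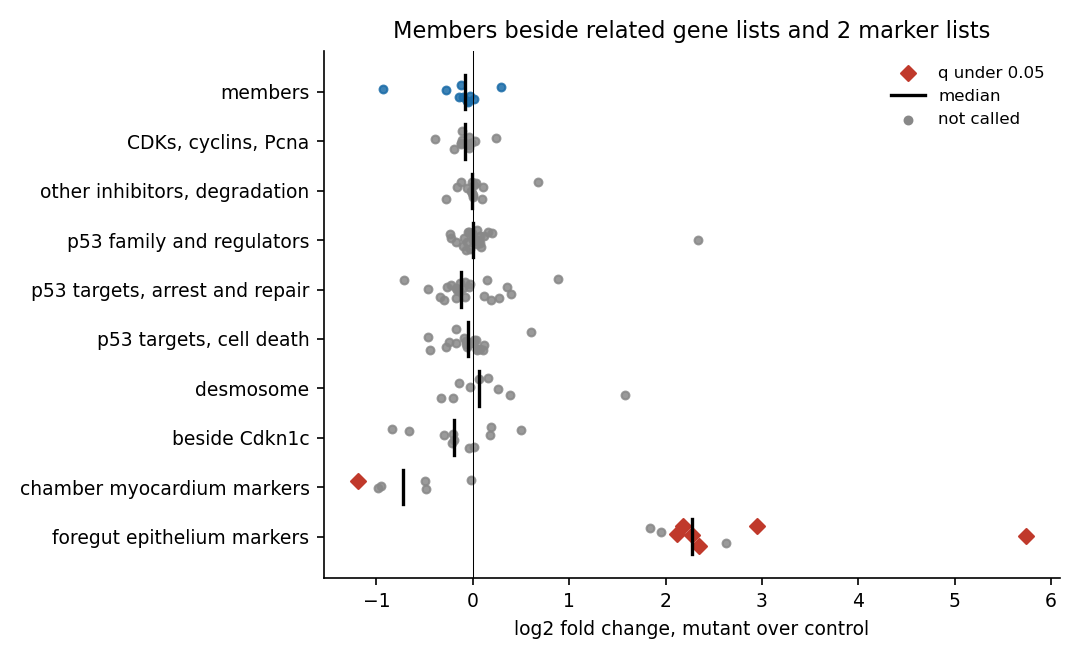
Log2 fold changes (mutant over control) of the 10 members, of 7 lists of related genes and of 2 marker lists, with 1 point per tested gene, a black line at each median and red diamonds for genes called at q under 0.05. Calls occur in the marker lists of chamber myocardium (1 lower) and foregut epithelium (6 higher) and in 0 of the related lists; the point of the p53 family list near 2.3 is Trp63.

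The kinases and cyclins that the inhibitors bind gave 0 calls among 12 tested genes and 0 with an unadjusted p under 0.05 in the authors' deposited Cuffdiff table. Their median log2 fold change was -0.08, with a range from -0.39 to 0.24. Calls made up 0.422% of all tested entries, and 3.17% had an unadjusted p under 0.05, so short lists would hold few. Cdk4 read 412 FPKM in the controls and 405 FPKM in the mutants, the D-type cyclin Ccnd3 read 254 and 235 FPKM, and the replication clamp Pcna, which Cdkn1a also binds, read 184 and 188 FPKM. Cdkn2b and Cdkn3 were listed with genes of protein degradation, not all of which act on the inhibitors. These likewise gave 0 calls among 14 tested and 0 with an unadjusted p under 0.05. Their median was -0.00. Cks1b, the cofactor that brings Cdkn1b to its ubiquitin ligase, read 186 and 184 FPKM. Skp1, the adaptor of that ligase, read 174 and 186 FPKM, and Ddb1, the adaptor of another cullin ligase, read 193 FPKM in both genotypes.

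The p53 family, its partners and its upstream regulators gave 0 calls among 24 tested genes by Cuffdiff, against 0.422% of all tested entries. The median was 0.00. The ribosomal proteins Rpl5 and Rpl11, which bind Mdm2, read 419 and 468 FPKM and 1078 and 1238 FPKM in control and mutant hearts. The nucleolar protein Npm1, another partner of p53 control, read 543 and 573 FPKM. Genes of ribosomal proteins have many near-identical pseudogenes that can share reads, so these levels are uncertain. The 1 gene with an unadjusted p under 0.05, against 3.17% of all tested entries, was Trp63, which encodes p63. It read 0.0900 FPKM in the controls and 0.455 FPKM in the mutants (log2 2.34, SE 1.11, q = 1.00 by Cuffdiff). A link between the Trp63 and Perp values was not tested. Trp63 also stands in the list of surface and stratified epithelium markers.

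Further p53 target genes gave no calls. Of 24 tested genes of arrest and repair 0 rose, 0 fell and 0 had an unadjusted p under 0.05 by Cuffdiff. Calls made up 0.422% of all tested entries and such p-values 3.17%, so lists of this size would hold few. In this list 17 genes lay below 0 with a median of -0.12, or -0.08 over the 21 that reached 1 FPKM. Of the 12150 tested entries with at least 1 FPKM 55.6% lay below 0. The phosphatase gene Ptp4a3 read 38.9 FPKM in the controls and 42.2 FPKM in the mutants, the Akt inhibitor Phlda3 read 29.7 and 27.6 FPKM, and the kinase Plk2 read 24.5 and 21.9 FPKM. Of 20 tested genes of cell death 0 rose, 0 fell and 0 had an unadjusted p under 0.05. Among them 11 lay below 0 with a median of -0.05, or -0.06 over the 17 that reached 1 FPKM. The pore former Bax read 85.9 and 88.3 FPKM, the death adaptor Siva1 read 69.6 and 66.5 FPKM, and the survival gene Mcl1, a member of the same family as Bax, read 53.1 and 54.2 FPKM.

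Genes beside Cdkn1c in its imprinted domain on chromosome 7 gave 0 calls among 11 tested and 0 with an unadjusted p under 0.05 by Cuffdiff. Their median was -0.19, or -0.04 over the 7 that reached 1 FPKM. The tetraspanin Cd81 read 195 FPKM in the controls and 168 FPKM in the mutants, the histone chaperone Nap1l4 read 114 and 112 FPKM, and Tssc4 read 34.0 and 34.3 FPKM. Kcnq1ot1, the antisense RNA that silences the domain on the paternal chromosome, was low at 0.292 and 0.254 FPKM. The potassium channel gene Kcnq1 read 2.70 and 1.51 FPKM (log2 -0.84, SE 0.717, q = 1.00 by Cuffdiff). Kcnq1ot1 and Kcnq1 are given 1 shared span, which does not show the extent of each gene. How reads from overlapping parts were assigned is not known here. Both genes were chosen after their values were seen. Across all tested entries within 1 Mb of Cdkn1c 0 of 27 were called.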

How the data were processed

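Total RNA from 3 control and 3 mutant hearts was sequenced by the authors. The submitters' processing notes list Cuffdiff, Cufflinks 2.1.1, TopHat2 2.0.8 with Bowtie2 2.1.0.0, and the mm10 build. The authors deposited 1 Cuffdiff table with 1 FPKM value per gene and genotype, a log2 fold change, a test statistic (a score whose sign is opposite to the fold) and p-values and q-values, per the file headers. Library normalisation and dispersion settings are not given in the sources used here. Depth per heart cannot be had from these values, and intervals for counting error are left out.

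Of 23290 entries 15387 were tested, and 99.3% were named from RefSeq (GRCm38.p6) and GENCODE M21 tables. The deposited p equalled the normal two-sided p of the statistic within 1e-05 for 15301 of 15301 entries with a finite fold, so SE was taken as the size of the log2 fold change over that of the statistic. Starts were counted from 1. Where several rows match a gene, the tested row with the highest mean FPKM is used. From each list, genes with q or unadjusted p under 0.05 and the 3 with the highest mean FPKM are named in full in the lists of related genes. Of the marker lists the sums, counts and a few genes are given. The members and lists were chosen with earlier results of these data known. Alternatives covered q thresholds, the set adjusted over, pseudocounts of 0.1 and 1 FPKM, centring, scaling and summed rows. The SE and adjustment steps were tested on simulated data. Python 3.11.15, numpy 2.4.6, pandas 2.3.3, scipy 1.17.1 and matplotlib 3.10.9 were used.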

Additional observations from a re-analysis of the deposited data

How the results depend on the processing

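No paired analysis was possible because the table gives 1 pooled value per genotype and no column per heart; for the same reason no heart could be left out. The counts of 0 called among the 10 members, among the inhibitors, among the p53 axis genes and among each of the 8 related lists held at q under 0.10. They also held with q recomputed over entries with at least 1 FPKM in either genotype. That setting covers 9 members, without Cdkn2a, and leaves out the low genes of the lists. The counts of 0 hold by construction at q under 0.01, and recomputing q over all tested entries repeats the deposited values. Perp had an adjusted p of 0.260 over entries with at least 1 FPKM, against 0.196 as deposited, and its log2 fold change ranged from -0.96 to -0.89 over pseudocounts, centring and scaling. Of 40 member fold changes recomputed with pseudocounts, centring or scaling 1 changed sign: Trp53 was -0.0111 instead of 0.0143 with FPKM scaled to equal sums, which lowers every log2 fold change by about 0.03. The member median ranged from -0.10 to -0.06 over its alternatives, of which leaving out Perp was chosen after the data were seen. Precision was lowest for Cdkn2a, with an SE of 0.898, and the depth behind it is unknown.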
